A study of Mus musculus with 14 samples.

Results

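Untreated kidneys of mice labelled as a conditional knockout of Ripk4 (cKO) were compared with untreated kidneys labelled wild type (WT). The comparison used 6 of the 14 kidney RNA-seq libraries of the series, 3 cKO and 3 WT, chosen by the genotype and treatment labels. The other 8 libraries, 4 of each genotype, came from mice given 15 mg/kg cisplatin by intraperitoneal injection and killed 4 days later, and they did not enter the fit. No agent was given to either untreated group, and the labels name no allele or driver line of Cre, no cell type of deletion, no deleted exon and no strain, age or sex. The labels do not state that each library came from a separate animal or culture, so p-values measure the spread between these samples.

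RIPK4 is a receptor-interacting serine/threonine kinase with ankyrin repeats that binds protein kinase C isoforms and can activate NF-kB and Wnt signalling. In mouse skin it drives keratinocyte differentiation. The kidney is built mostly of tubule epithelium, and the series title joins RIPK4 to ferroptosis, a cell death by lipid peroxidation, and to ACSM1, a mitochondrial enzyme that activates medium-chain fatty acids. The comparison without drug asks whether kidney RNA differed by genotype in the absence of cisplatin.

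Levels are FPKM, fragments per kilobase of gene per 1 M reads assigned to genes, as deposited. Differences are cKO minus WT on log2(FPKM + 1), given ± SE from limma, and the added 1 makes them smaller than the ratio of FPKM for genes of a few FPKM. A gene was called at a Benjamini-Hochberg adjusted p under 0.05 over the 15046 genes tested. The sequencing depth was 64.9, 43.7 and 77.0 M assigned reads in WT and 41.4, 41.7 and 38.2 M in cKO, so every cKO library was shallower than every WT library. One read in a gene of 1 kb was worth 0.0130 to 0.0262 FPKM.

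No gene was called. Limma at an adjusted p under 0.05 called 0 of 15046 genes, a share of 0%, and voom on the reads recovered from the FPKM values also called 0, with 89 genes higher and 251 lower at an unadjusted p under 0.05. In the limma fit, 112 genes had higher values in cKO at an unadjusted p under 0.05 (0.744%) and 254 had lower values (1.69%). With median-of-ratios factors these counts were 174 and 215, and with quantile normalization 195 and 206. In 305 genes (2.03%) all 3 cKO libraries lay above all 3 WT libraries, and in 639 genes (4.25%) all lay below. The median difference over all genes was -0.02, and 70 genes (0.465%) differed by more than 2-fold on log2(FPKM + 1).

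A low count of calls does not by itself bound the differences, so their intervals were examined. On log2(FPKM + 1), the 95% confidence interval of the difference lay inside 2-fold in both directions for 14478 genes (96.2%). It lay inside 1.5-fold for 84.9%. These limits, here and below, are on that scale. For genes of a few FPKM or less they do not bound the ratio of FPKM, where the fold difference can be larger. The share inside 1.5-fold was 69.8% for the 1498 genes at a mean of 0.5 to 1 FPKM, 78.1% at 1 to 10 FPKM, 93.2% at 10 to 100 FPKM and 93.8% at 100 FPKM and more. Precision was thus lowest for weakly expressed genes, and Ripk4 itself had a mean of 6.01 FPKM.

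**Figure D1:**
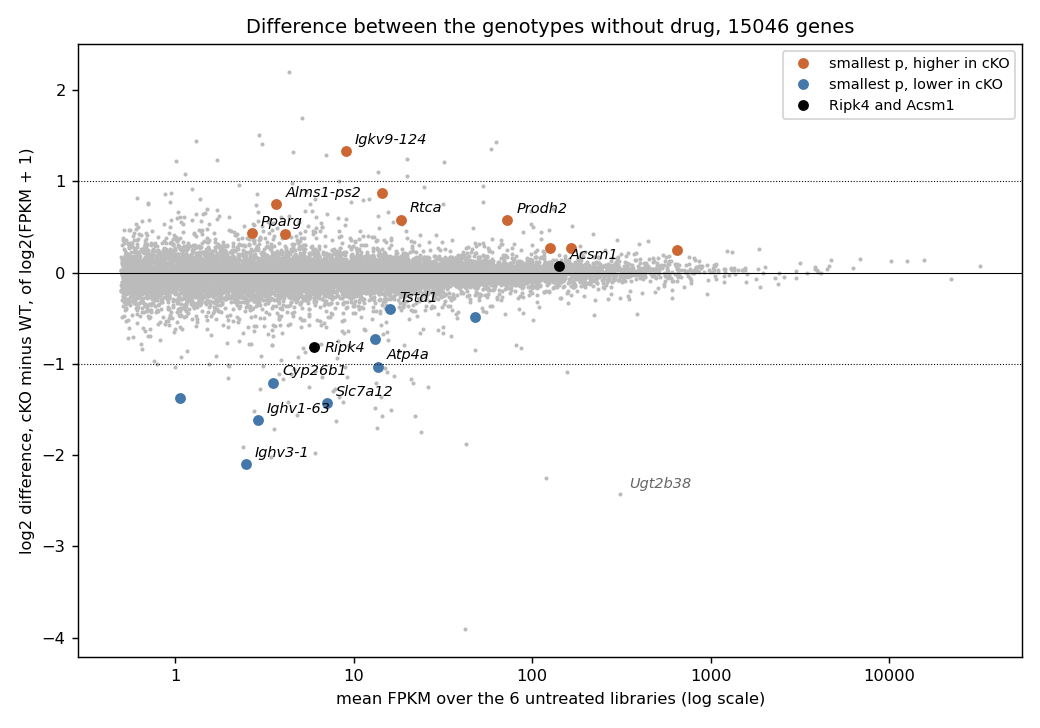
Each grey point is 1 of the 15046 genes, with its mean FPKM over the 6 untreated libraries on a log axis and the cKO minus WT difference of log2(FPKM + 1) on the vertical axis. Orange and blue points are the genes with the smallest p in each direction, and black points are Ripk4 and Acsm1. Dotted lines mark a 2-fold difference on the log2(FPKM + 1) scale, which 70 genes exceeded.

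The 6 libraries were close to each other across genes. Pearson r of log2(FPKM + 1) was 0.988 to 0.989 among WT libraries, 0.981 to 0.986 among cKO libraries and 0.984 to 0.991 between the genotypes, so pairs within cKO were the least alike. The cKO library of replicate 3 was the farthest of the 6 from the median library in 4317 genes (28.7%), against 11.2% to 17.2% for each of the others. It lay farthest out on the first principal component (30.5% of the variance, -29.1 against -8.44 to 14.1), and cKO replicate 1 lay highest on the second (25.5%, 26.4 against -13.3 to 4.22). Kidney markers matched the labelled tissue: Slc34a1, the phosphate carrier of the proximal tubule, was at 1294 ± 73.6 FPKM in WT and 1325 ± 89.0 in cKO, and Umod, uromodulin of the thick ascending limb, was at 2003 ± 67.9 and 1792 ± 73.4 (SD, n = 3).

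Ripk4 (ENSMUSG00000005251, chromosome 16, 97741933 to 97763737 in mm10) was read first, because it checks the genotype labels. Its levels were 7.18, 8.11 and 8.51 FPKM in WT and 3.68, 3.98 and 4.61 FPKM in cKO. All 3 cKO libraries lay below all 3 WT libraries, and the ratio of the group means was 0.516. The difference was -0.81 ± 0.11 (95% confidence interval -1.08 to -0.55, unadjusted p = 0.000152), and its limma adjusted p was 0.335. It ranked 6 by p among the 15046 genes. An exact two-sided permutation of the 6 library labels gave p = 0.1, the smallest that 3 against 3 libraries allow.

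Ripk4 reads recovered from the FPKM values were 1695, 1290 and 2384 in WT and 555, 604 and 640 in cKO, so transcript was counted in each cKO library. These reads rest on a gene length found by searching for the one that makes the reads whole. The value pools every exon of the gene, and GENCODE M21 gives it 1 transcript of 8 exons on the minus strand. Reads over a deleted exon could not be separated from the others. In whole-kidney RNA, fewer cells of a type and less RNA per cell cannot be told apart. Without each library in turn the difference lay between -0.88 and -0.75, with adjusted p from 0.249 to 1.

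The other RIP kinases and the necroptosis genes showed no such separation. Of 12 genes tested in this list, Ripk4 was the 1 gene with an unadjusted p under 0.05 and the 1 gene whose groups did not overlap. Of all genes tested, 1.69% were lower at that p and 4.25% lay lower in cKO without overlap. In the list 11 of the 12 lay below 0, Ripk4 included (8 with quantile normalization), with a median of -0.07. Of all genes tested, 59.4% lay below 0 (48.9% with quantile normalization). Ripk1, which relays death receptor signals, was at 8.30, 7.42 and 7.95 FPKM in WT and 7.98, 7.94 and 6.51 in cKO. Ripk3, its necroptotic partner, was at 0.705, 0.168 and 0.717 FPKM and at 0.343, 0.466 and 0.633. Mlkl, the pore former that RIPK3 phosphorylates, was at 1.19, 0.819 and 0.871 FPKM and at 0.717, 0.822 and 1.04. The groups overlapped for these 3 genes, and Ripk3 in particular was too weakly expressed to bound a difference closely. Casp8, the caspase that restrains necroptosis, differed by 0.09 ± 0.10.

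Genes known to act with RIPK4 were next. None of the 29 tested genes of epidermal differentiation and cell junctions had an unadjusted p under 0.05, and their median difference was -0.01. Krt18, a keratin of simple epithelia, reached 28.2 FPKM in cKO replicate 3 against 10.8 to 14.4 in the other 5 libraries. Of 8 protein kinase C isoforms tested, none had an unadjusted p under 0.05 and all 8 lay below 0, where 59.4% of all genes tested did. Their median was -0.09, and it was -0.05 without cKO replicate 1 and also with quantile normalization. Prkcd was at 46.8, 53.1 and 44.2 FPKM in WT and at 40.9, 44.1 and 45.6 in cKO, and its groups overlapped.

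Of all genes tested, 0.744% were higher and 1.69% lower at an unadjusted p under 0.05. Of 28 Wnt pathway genes tested, 1 was higher at that p and none lower. This was Dvl1, the dishevelled protein that carries the signal from the receptor, at 39.6, 44.0 and 41.2 FPKM in WT and 49.0, 46.3 and 50.7 in cKO (0.22 ± 0.07, limma adjusted p = 1.00). Lrp5, a Wnt co-receptor, was at 14.2, 13.5 and 12.6 FPKM in WT and 11.5, 11.8 and 12.2 in cKO, a difference of -0.17 ± 0.08. Dkk3, another list member, was at 6.67, 6.29 and 6.66 FPKM in WT and 5.47, 5.88 and 6.11 in cKO. Groups were free of overlap for 1 gene higher in cKO, Dvl1, and for 2 lower, Lrp5 and Dkk3. Of all genes tested, 2.03% lay higher and 4.25% lower in cKO without overlap.

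Acsm1, the enzyme of the series title (ENSMUSG00000033533, chromosome 7, 119607026 to 119662515), was at 153, 138 and 121 FPKM in WT and 165, 129 and 137 FPKM in cKO. The groups overlapped. The difference was 0.07 ± 0.12 (95% confidence interval -0.21 to 0.35), with a limma adjusted p of 1.00 and an exact permutation p of 0.7, and it was -0.02 without WT replicate 3 and -0.03 without cKO replicate 1. The interval of the main estimate lay inside 1.5-fold in both directions.

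The other acyl-CoA synthetases were not separated by genotype either, but some of their intervals were wider than that of Acsm1. Of 18 tested, Acsm1 included, none had an unadjusted p under 0.05 and no pair of groups was free of overlap. On log2(FPKM + 1) the interval lay inside 2-fold for all 18. Acsm2, the most abundant of them, was at 4530, 4490 and 4350 FPKM in WT and 5480, 4530 and 4100 in cKO. Acsl4, which loads membranes with oxidisable polyunsaturated fatty acids and so favours ferroptosis, was at 10.1, 9.98 and 11.3 FPKM and at 9.5, 10.8 and 10.2. Acsm3 reached 525 FPKM in cKO replicate 1 against 219 to 333 in the other 5 libraries.

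No ferroptosis gene had an unadjusted p under 0.05 among 28 suppressors and 23 promoters or markers, and the interval lay inside 2-fold for each of them. Nqo1, an NRF2-driven quinone reductase, was at 32.4, 27.0 and 31.4 FPKM in WT and 27.6, 23.1 and 26.4 in cKO (-0.23 ± 0.10). Gclc, the rate-limiting enzyme of glutathione synthesis, was at 249, 191 and 198 FPKM and at 228, 168 and 143. Cisd2, an iron-sulfur protein of the endoplasmic reticulum and mitochondria, was the suppressor whose groups did not overlap, at 38.4, 35.7 and 37.4 FPKM in WT and 42.3, 42.7 and 38.9 in cKO (0.15 ± 0.07). Ncoa4, the cargo receptor that delivers ferritin for breakdown, was the promoter whose groups did not overlap, at 44.0, 45.3 and 43.4 FPKM in WT and 41.8, 43.2 and 29.9 in cKO (-0.22 ± 0.13). Of all genes tested, 2.03% lay higher and 4.25% lower in cKO without overlap, so single genes of this kind do not set these lists apart. None of 41 NRF2 targets and antioxidant enzymes had an unadjusted p under 0.05, and none of their group pairs was free of overlap.

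With no gene called, the genes with the smallest p among those at a mean of 1 FPKM or more, without overlap and without predicted gene models, are given as values. They were picked on this difference, so their separation is a description. The rule took 10 per direction, and Ripk4 was itself among the lower 10. Their adjusted p ran from 0.275 to 1.00. A predicted gene, Gm5900, had the smallest p of all (3.21e-05, adjusted 0.275), at 4.48, 3.60 and 4.92 FPKM in WT and 0.0644, 0.448 and 0.839 in cKO. It lay outside the rule and is named because of its rank.

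Among the genes with lower values, Atp4a encodes the catalytic subunit of the gastric proton pump. It was at 19.1, 20.7 and 16.2 FPKM in WT and 8.53, 9.76 and 7.60 in cKO, a difference of -1.03 ± 0.12 with a limma adjusted p of 0.275. Each cKO library was at about the same level, well under the lowest WT library. Cyp26b1, an enzyme that breaks down retinoic acid, was at 6.58, 5.02 and 4.44 FPKM in WT and 1.79, 1.32 and 2.12 in cKO (-1.21 ± 0.17, limma adjusted p = 0.335).

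Slc7a12, a member of the amino acid transporter family SLC7, was at 11.5, 9.87 and 10.5 FPKM in WT and 1.94, 5.22 and 3.40 in cKO (-1.43 ± 0.25, limma adjusted p = 0.721). The WT libraries were tight and the cKO libraries spread. Tstd1, a thiosulfate sulfurtransferase-like protein, was at 17.9, 18.5 and 18.6 FPKM and at 13.1, 13.7 and 14.1 (-0.40 ± 0.07). Its difference was small against its level, and both groups were tight. Snord104, a small nucleolar RNA that such libraries capture poorly, was at 17.4, 14.7 and 17.6 FPKM and at 9.32, 10.6 and 8.99. The pseudogene Rpl38-ps2 was at 60.8, 52.4 and 54.2 FPKM and at 36.6, 40.3 and 41.3, and its reads may belong to near-identical ribosomal protein copies.

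Among the genes with higher values, Rtca, which cyclises the 3′ phosphate of RNA, was at 15.8, 14.4 and 13.5 FPKM in WT and 22.1, 21.4 and 23.1 in cKO. The difference was 0.58 ± 0.08 with a limma adjusted p of 0.335. Prodh2, the hydroxyproline dehydrogenase, was at 56.4, 58.3 and 58.5 FPKM and at 73.1, 81.5 and 107 (0.57 ± 0.13, limma adjusted p = 1.00), so cKO replicate 3 stood above the other 2 cKO libraries. Alms1-ps2, a pseudogene of the cilium gene Alms1, was at 2.24, 2.92 and 2.37 FPKM and at 5.36, 4.52 and 4.77.

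Mogat1, which acylates monoacylglycerol, was at 116, 119 and 109 FPKM in WT and 135, 146 and 134 in cKO. Pparg, the nuclear receptor of fat storage, was at 2.13, 1.84 and 2.48 FPKM and at 3.62, 2.94 and 3.19, with Adipoq, a defining fat cell marker, at 0.858, 0.700 and 1.09 FPKM and at 0.0527, 0.288 and 1.20. Pparg was thus higher in all 3 cKO libraries, while Adipoq was lowest in cKO replicates 1 and 2. Bdh2, a hydroxybutyrate dehydrogenase, was at 142, 141 and 165 FPKM and at 169, 182 and 188. Cox6b1, a subunit of cytochrome c oxidase, was at 596, 578 and 609 FPKM and at 661, 691 and 764. Fkbp11, a folding enzyme of secretory cells, was at 3.04, 3.35 and 3.80 FPKM and at 5.02, 4.96 and 4.63.

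**Figure D2:**
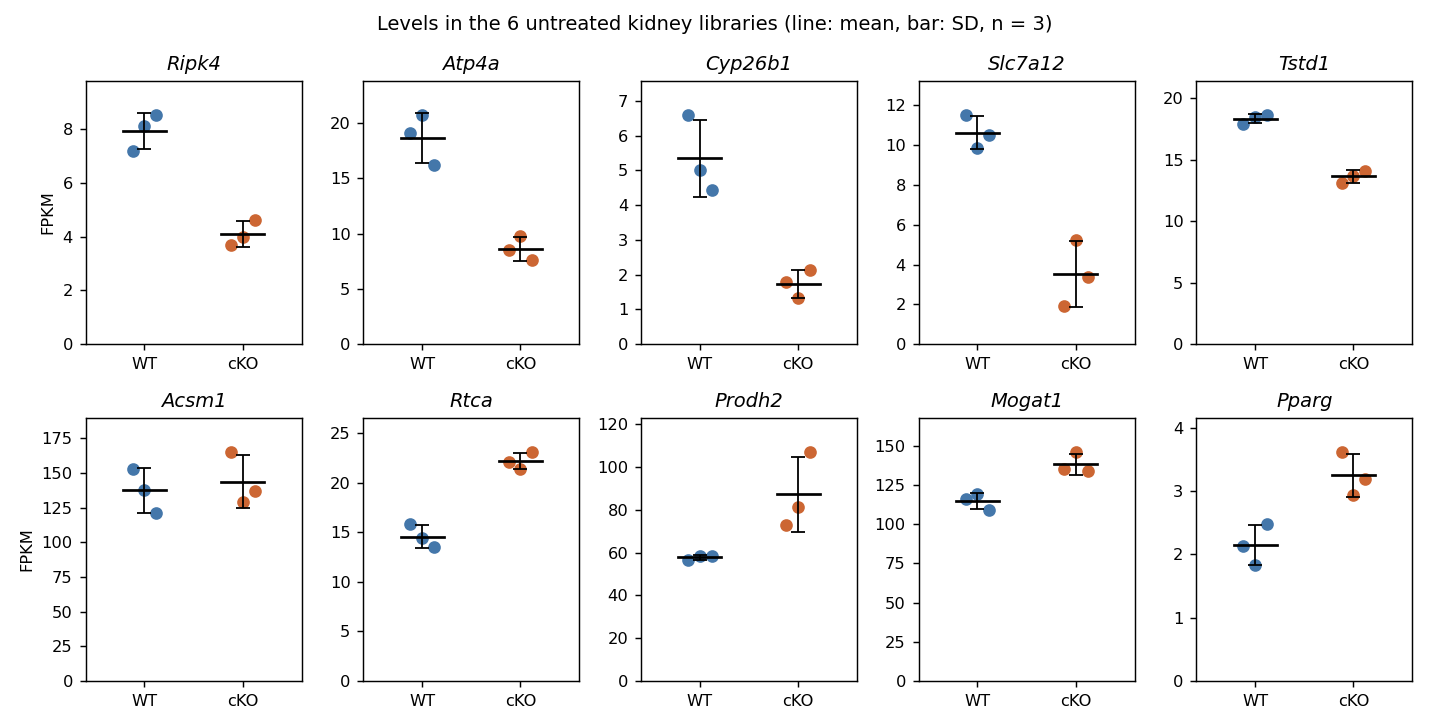
FPKM of 10 genes in each untreated library, WT in blue and cKO in orange, with the group mean as a line and the SD as a bar (n = 3). Ripk4, Atp4a, Cyp26b1, Slc7a12 and Tstd1 lie lower in all 3 cKO libraries and Rtca, Prodh2, Mogat1 and Pparg higher, while the groups overlap for Acsm1.

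The remaining 5 genes of the rule were variable segments of immunoglobulin genes, which differ between animals with the antibodies their plasma cells make. Igkv9-124 was at 4.77, 3.58 and 5.68 FPKM in WT and 9.59, 14.7 and 16.0 in cKO, and Igkv3-12 was higher in cKO as well. Ighv1-63 was at 5.97, 4.89 and 3.85 FPKM and at 1.10, 1.16 and 0.523, and Ighv3-1 and Igkv3-3 were lower in cKO as well. Over 174 tested segments, a list added after the values were seen, 9 were higher and 16 lower at an unadjusted p under 0.05. The interval lay inside 2-fold for 16. Of all genes tested, 0.744% were higher and 1.69% lower at that p, and 96.2% had an interval inside 2-fold. The median over segments was -0.21. It was 0.11 without WT replicate 3 and 0.01 without cKO replicate 3, and stayed below 0 without any of the other libraries. Segments are near-identical copies, so their reads may be split between them. Their log2(FPKM + 1) averaged 2.78, 2.49 and 3.32 in the WT libraries and 2.16, 3.39 and 2.32 in the cKO libraries, so the mean over segments overlapped between the groups.

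Some differences that were large in size rested on single libraries. Ugt2b38, a glucuronosyltransferase, was at 305, 342 and 320 FPKM in WT and at 0.140, 345 and 553 in cKO. The single library near 0 was cKO replicate 1, and in the 8 cisplatin libraries it was between 53.6 and 514 FPKM. Serpina1d, an alpha-1-antitrypsin copy, was at 43.1, 61.6 and 67.3 FPKM in WT and at 1.11, 40.4 and 42.6 in cKO, again lowest in cKO replicate 1. Counted over all genes tested, 135 were more than 8-fold below the other 5 libraries in 1 library, of which 52 were in cKO replicate 1, 36 in cKO replicate 3 and 7 to 18 in each of the other 4. Immunoglobulin genes made up 28 of the 52.

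Such values also came in patterns that crossed the genotypes. Rpl34-ps1, a ribosomal protein pseudogene, was at 175, 160 and 177 FPKM in WT and at 175, 9.28 and 24.7 in cKO. BC002163 had the largest difference of all genes (-3.90 ± 1.18), with 3.58, 110 and 133 FPKM in WT and 1.51, 1.13 and 2.79 in cKO, so WT replicate 1 lay with the cKO libraries. After cisplatin it was at 196 FPKM in 1 WT library and between 1.44 and 3.84 in the other 7. Gm8730 was at 135, 125 and 143 FPKM in WT and at 246, 291 and 2.56 in cKO. The genes of this and the preceding paragraph were chosen after their values were seen. Ugt2b38, Serpina1d and Rpl34-ps1 belong to families of near-identical copies, so their reads may be split between relatives.

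Gene lists were described by their counts and medians, beside the same over all genes tested. The 44 lists held 852 distinct tested genes, of which 0 were called by limma, 10 were higher and 23 lower at an unadjusted p under 0.05, together 3.87%. The list medians ran from -0.23 to 0.12, and 32 lists lay within 0.1 of the median over all genes. The interval was inside 2-fold for 93.7% of the listed genes, against 96.2% of all genes tested. Among all genes tested, 0.744% were higher and 1.69% lower at an unadjusted p under 0.05, and 59.4% lay below 0.

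Markers of macrophages and of T and NK cells had the lowest medians. All 17 tested macrophage markers lay below 0, where 59.4% of all genes tested did, with a median of -0.23. With quantile normalization 16 did, against 48.9% of all genes tested. In the main fit 1 marker had an unadjusted p under 0.05. This was Csf1r, the receptor for macrophage colony-stimulating factor, at 14.8, 13.8 and 14.1 FPKM in WT and 12.7, 9.96 and 12.5 in cKO. Adgre1, which encodes F4/80, was at 1.81, 1.53 and 1.66 FPKM and at 0.887, 1.37 and 1.46, also without overlap. For C1qa, a complement gene of tissue macrophages, cKO replicate 3 was at 15.0 FPKM, as was WT replicate 1. The list's median was -0.29 without cKO replicate 3 and -0.09 without cKO replicate 1. T and NK cell markers had a median of -0.23 over 11 tested genes, which was -0.07 without cKO replicate 1 and -0.42 without cKO replicate 3. The smallest p among them was that of Trbc1, a T cell receptor constant region, at 1.06, 1.57 and 1.08 FPKM in WT and 0.348, 0.691 and 0.965 in cKO. Other lists also lay mostly below 0, with 13 of 14 B and plasma cell markers (median -0.20), 16 of 18 endothelial markers (median -0.13) and 26 of 32 extracellular matrix genes (median -0.14). Without cKO replicate 1 these 3 medians were -0.10, -0.03 and -0.04, without WT replicate 1 the last was -0.02, and without cKO replicate 2 the first was -0.51. The 4 tested neutrophil markers were split evenly, with a median of -0.08.

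The cKO libraries were spread for genes of antigen presentation. All 18, of which Cd74 is also in the macrophage list, lay below 0, where 59.4% of all genes tested did. Their median was -0.22 (-0.40 without cKO replicate 3 and -0.13 without cKO replicate 1). None had an unadjusted p under 0.05 or groups free of overlap. Cd74, the invariant chain of MHC class II, was at 185, 188 and 151 FPKM in WT and at 118, 119 and 186 in cKO. H2-K1, a class I heavy chain, was at 305, 304 and 285 FPKM and at 219, 228 and 321. In both genes cKO replicates 1 and 2 lay below WT and cKO replicate 3 within or above it. On log2(FPKM + 1), the list averaged 5.46, 5.38 and 5.11 in the WT libraries and 4.92, 4.79 and 5.50 in the cKO libraries.

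Of 34 interferon-stimulated genes tested, 4 were lower at an unadjusted p under 0.05 and none higher, and 29 lay below 0. Of all genes tested, 1.69% were lower at that p, 0.744% were higher and 59.4% lay below 0. Psmb9, an immunoproteasome subunit, was at 8.61, 8.65 and 7.53 FPKM in WT and 4.25, 5.02 and 6.93 in cKO (-0.55 ± 0.16, limma adjusted p = 1.00). Usp18, which removes ISG15 from proteins, was at 3.55, 3.72 and 3.01 FPKM and at 1.72, 2.17 and 2.70. Rsad2 and Cmpk2, antiviral neighbours, differed by -0.34 ± 0.12 and -0.22 ± 0.09. The list's mean level in cKO replicate 3, 2.90, equalled that of the highest WT library, and the median was -0.28 without cKO replicate 3 and -0.08 without cKO replicate 1.

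The same libraries stood apart in markers of other tissue. The mean of 11 tested urothelium markers was 2.60 in cKO replicate 3 and 1.42 in cKO replicate 2, against 1.72 to 2.20 in WT, and that of 14 fat markers was 3.35 in cKO replicate 3 against 2.44 and 2.53 in the other cKO libraries and 2.74 to 2.96 in WT. The 19 collecting duct markers were also highest in cKO replicate 3, at 4.80 against 4.36 to 4.54 in the other 5 libraries. Upk1a, a plaque protein of the bladder and renal pelvis lining, was at 3.97, 4.35 and 3.14 FPKM in WT and 3.82, 2.62 and 7.51 in cKO. Their part in the values of the immune lists was not tested.

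**Figure D3:**
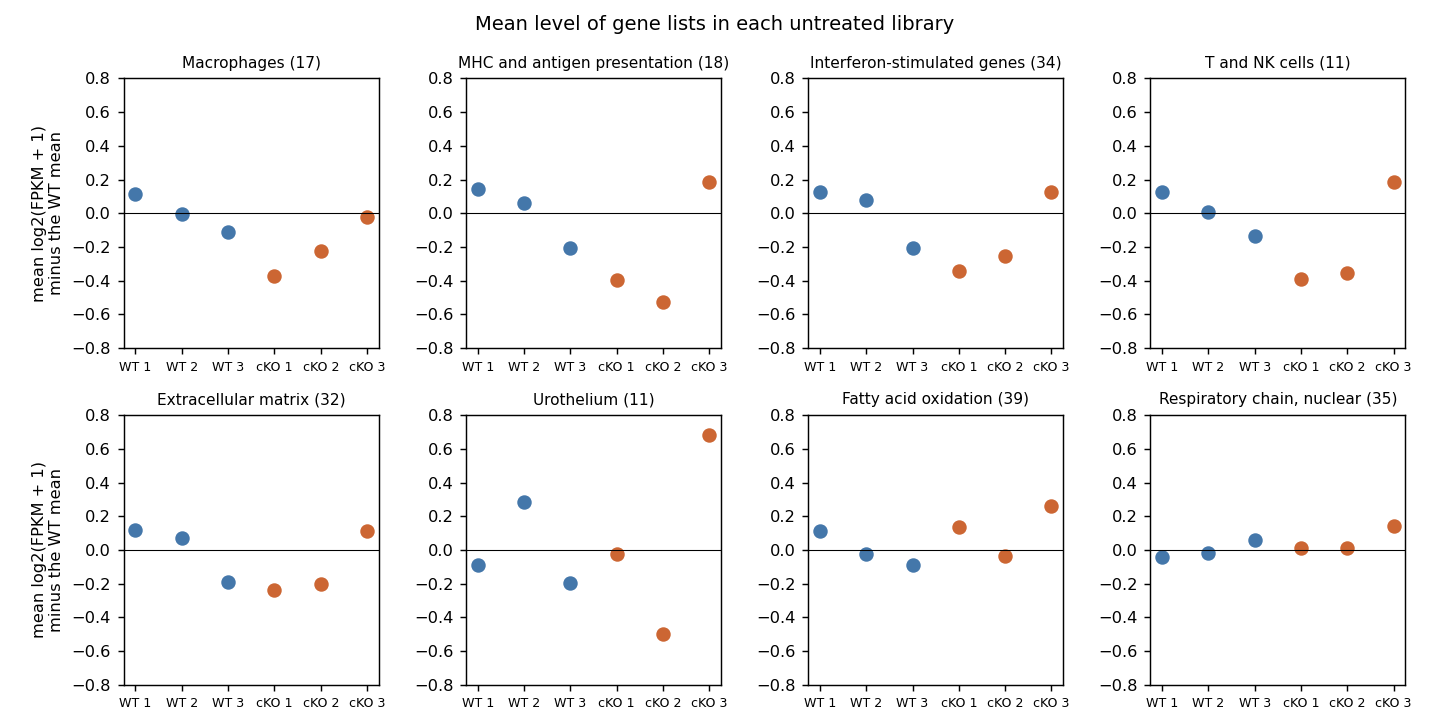
Mean log2(FPKM + 1) over the tested genes of 8 lists in each untreated library, minus the mean of the 3 WT libraries, with the number of genes in brackets. For antigen presentation, cKO replicates 1 and 2 lie below the WT libraries and cKO replicate 3 above them, and the urothelium markers spread most within cKO.

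Few injury and stress genes had an unadjusted p under 0.05. Of all genes tested, 1.69% were lower and 0.744% higher at that p. Of 26 tubular injury genes tested, 1 was lower at that p and none higher. This was Cp, ceruloplasmin, at 25.2, 24.6 and 24.2 FPKM in WT and 15.1, 22.8 and 17.3 in cKO (-0.42 ± 0.14). Of 24 NF-kB and cytokine genes 20 lay below 0, where 59.4% of all genes tested did. Bcl3, an NF-kB cofactor, had the 1 unadjusted p under 0.05 in this list. It was at 14.8, 12.1 and 8.90 FPKM in WT and 7.89, 7.62 and 9.73 in cKO, with overlap. Of 25 immediate-early genes 19 lay below 0, with a median of -0.11 (-0.02 without cKO replicate 1). Among them, Zfp36, which destabilises cytokine mRNA, was at 18.0, 15.7 and 17.6 FPKM in WT and 12.7, 10.9 and 16.3 in cKO. Trib3, a target of the integrated stress response, was at 1.77, 1.08 and 1.08 FPKM and at 0.618, 0.659 and 0.571 (-0.50 ± 0.15). None of 26 p53 targets, 21 clock genes, 20 heat shock genes and 30 genes of cholesterol and fatty acid synthesis had an unadjusted p under 0.05.

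Mitochondrial lists lay at the upper end. Over all genes tested, 59.4% lay below 0 and 0.744% were higher at an unadjusted p under 0.05. Of 39 fatty acid oxidation genes 33 lay above 0, with a median of 0.10 (0.05 without cKO replicate 3 and 0.15 without cKO replicate 2), and 2 were higher at an unadjusted p under 0.05. Eci1, an isomerase for unsaturated fatty acids, was at 62.2, 63.9 and 66.0 FPKM in WT and 70.1, 70.9 and 78.8 in cKO. Acad10, an acyl-CoA dehydrogenase family member, was at 71.0, 68.6 and 71.8 FPKM and at 101, 89.2 and 74.0. Of 35 nuclear respiratory chain genes 29 lay above 0, with a median of 0.06 (0.01 without cKO replicate 3 and 0.03 without WT replicate 2), and each interval lay inside 2-fold. The mitochondrial genes mt-Atp8 and mt-Nd4l were lower at an unadjusted p under 0.05, but both overlap a neighbouring gene and mt-Nd4l was at 134 and 127 FPKM in 2 WT libraries and at 52.4 to 58.4 in the other 4.

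Median differences of the tubule segment lists were small. The median was 0.00 over 32 proximal tubule transport genes and 0.04 over 29 proximal tubule metabolism genes. It was -0.04 over 20 thick ascending limb and distal tubule genes and 0.01 over 19 collecting duct genes. Of those 20, 14 lay below 0, where 59.4% of all genes tested did. With median-of-ratios factors 10 did, against 49.7% of all genes tested. At an unadjusted p under 0.05, 2 of the 20 were lower and none higher, against 1.69% lower and 0.744% higher of all genes tested. At that p, 2 of the 29 proximal tubule metabolism genes were higher and none lower. Of the 32 proximal tubule transport genes, 1 was higher and 1 lower. Sardh, which degrades sarcosine, was at 361, 396 and 412 FPKM in WT and 425, 513 and 558 in cKO (0.35 ± 0.11), and Cyp2e1, a P450 enzyme, was at 1570, 1800 and 1750 FPKM and at 2320, 1920 and 1890 (0.26 ± 0.11). Slc12a1, the salt carrier of the thick ascending limb, was at 285, 278 and 307 FPKM and at 231, 285 and 203 (-0.29 ± 0.12). Cyp7b1, an oxysterol hydroxylase that is higher in male mouse kidney, was at 105, 93.3 and 111 FPKM and at 79.8, 77.4 and 69.4 (-0.44 ± 0.09, unadjusted p = 0.00128, limma adjusted p = 1.00). Of 20 tested male-biased kidney genes 13 lay above 0, with a median of 0.03, and of 15 female-biased ones 8, with a median of 0.01 (-0.01 with quantile normalization), Slc7a12 being among the lower of the latter. Hba-a2, an alpha-globin of red blood cells, was at 45.4, 33.8 and 37.7 FPKM and at 21.8, 29.0 and 22.2, while Hbb-bt, a beta-globin, overlapped. Of 9 red blood cell genes tested 6 lay above 0, with a median of 0.03.

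**Figure D4:**
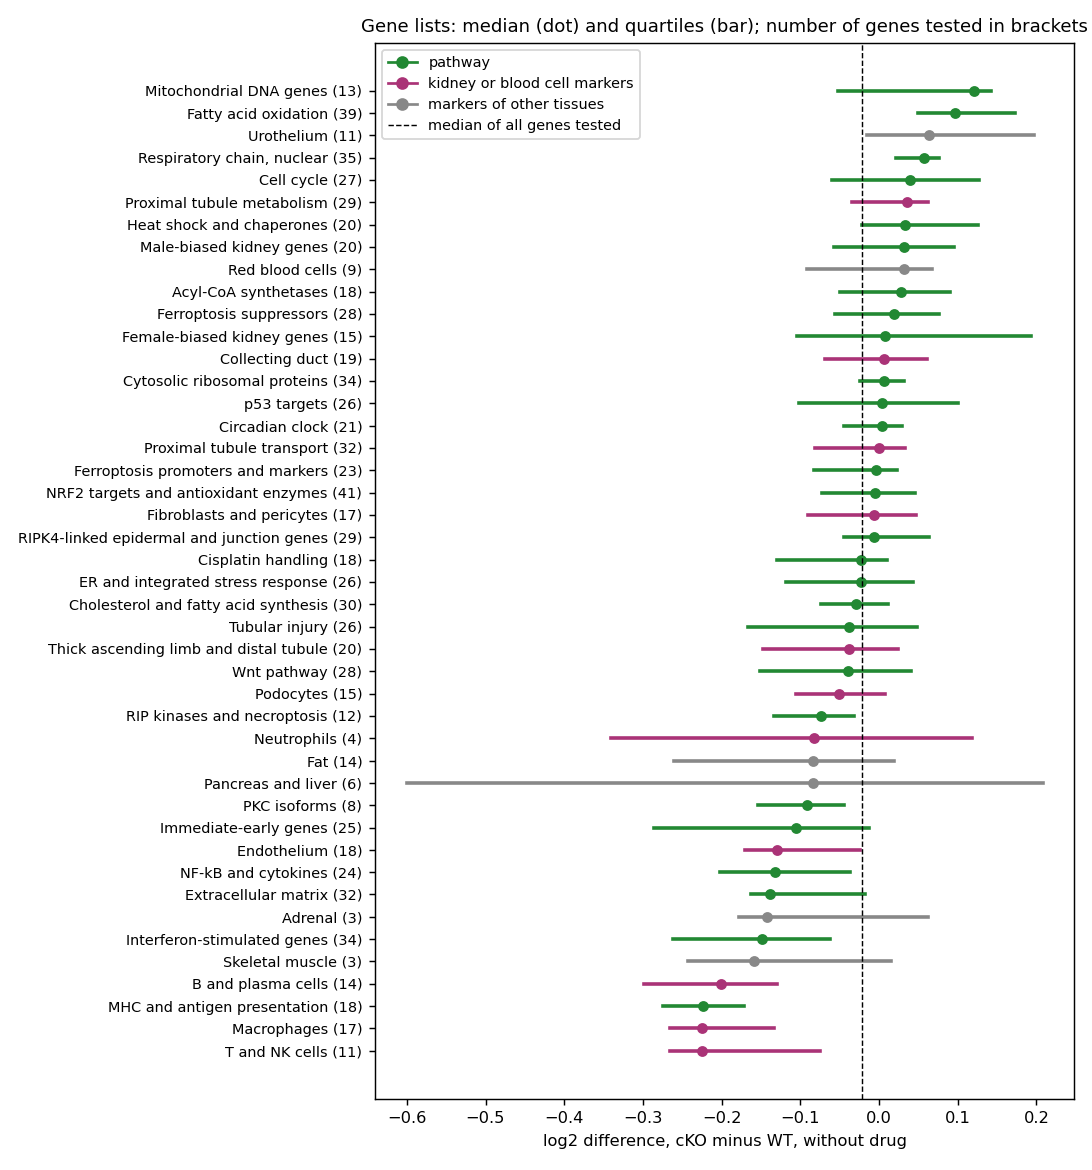
Median cKO minus WT difference without drug (dot) and quartiles (bar) for each of the 44 gene lists, with the number of tested genes in brackets and the median over all tested genes as a dashed line. Medians run from -0.23 for macrophage and T cell markers to 0.12 for mitochondrial DNA genes, the latter 0.03 without WT replicate 1, 0.05 without cKO replicate 3 and near 0 with quantile normalization.

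Genes near Ripk4 were listed by position. Of 64 tested genes within 10 Mb of it on chromosome 16, 3 were higher at an unadjusted p under 0.05, and none lower. These were Sh3bgr, at 0.808, 0.776 and 0.521 FPKM in WT and 1.12, 1.18 and 1.49 in cKO, the long noncoding RNA A930006K02Rik and Smim11. Of all genes tested, 0.744% were higher and 1.69% lower at an unadjusted p under 0.05. On log2(FPKM + 1) the interval lay inside 2-fold for all 64. For genes near 1 FPKM, such as Sh3bgr, this does not bound the ratio of FPKM.

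After cisplatin the same comparison called many genes, 702 higher (4.67%) and 1287 lower (8.55%) of 15046, and 544 genes (3.62%) had a genotype difference that itself differed between the treatments. These counts moved with single libraries, from 272 to 1256 higher, from 458 to 2904 lower and from 45 to 2131 for the difference of differences, when each library was left out in turn. The cisplatin groups held 4 libraries each, against 3 without drug. Ripk4 differed by -0.72 ± 0.25 (limma adjusted p = 0.0823) at 7.61, 10.6, 13.3 and 9.0 FPKM in WT and 5.32, 5.62, 9.09 and 3.61 in cKO, and the change of its difference was 0.09 (adjusted p = 0.914). Acsm1 was higher in cKO after cisplatin by 1.39 ± 0.34 (limma adjusted p = 0.0290), at 33.4, 30.5, 32.3 and 26.1 FPKM in WT and 66.9, 49.9, 71.1 and 185 in cKO. The call was lost without WT replicate 2, 3 or 4 or cKO replicate 3 (adjusted p 0.0568 to 0.0836), and the change of its difference from that without drug was 1.32 with an adjusted p of 0.112. With each of the 14 libraries left out in turn, this change ran from 0.93 to 1.55, with limma adjusted p up to 0.219. Only without cKO cisplatin replicate 4 was it under 0.05 (0.93, limma adjusted p = 0.0415).

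The 19 genes picked without drug, beside Ripk4, gave the same direction after cisplatin in 12 cases, 6 of 10 higher and 6 of 9 lower. The share of all genes with the same direction was not counted. Of the 19 genes, 3 were called after cisplatin, in the same direction: Igkv9-124, Alms1-ps2 and Bdh2. Of all genes tested, 4.67% were called higher after cisplatin and 8.55% lower. Alms1-ps2 was at 1.26, 0.410, 0.234 and 0.235 FPKM in WT and 2.38, 2.77, 4.34 and 4.17 in cKO after cisplatin (1.54 ± 0.24, limma adjusted p = 0.00753), and its call held without each of the 8 libraries, with adjusted p up to 0.0290. Bdh2 differed by 0.96 ± 0.23 (limma adjusted p = 0.0266) and lost its call without WT replicate 3 or 4 or cKO replicate 3 or 4 (adjusted p 0.0704 to 0.0750). Igkv9-124 lost its call without each of 6 of the 8 libraries, all but WT replicate 1 and cKO replicate 1 (adjusted p 0.0545 to 0.0916). The difference of Atp4a went from -1.03 without drug to 0.77 ± 0.35 after cisplatin, and this change had an adjusted p of 0.0454. The 95% confidence interval after cisplatin was -0.02 to 1.55, and the change lost its call without each of the 6 untreated libraries and without WT or cKO cisplatin replicate 3 or 4 (adjusted p 0.0611 to 0.118). Rtca went from 0.58 to -0.14 ± 0.16, a change with an adjusted p of 0.0597. Atp4a and Rtca were picked on the untreated libraries, which also enter the test of this change, so these p-values depend on the pick.

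**Figure D5:**
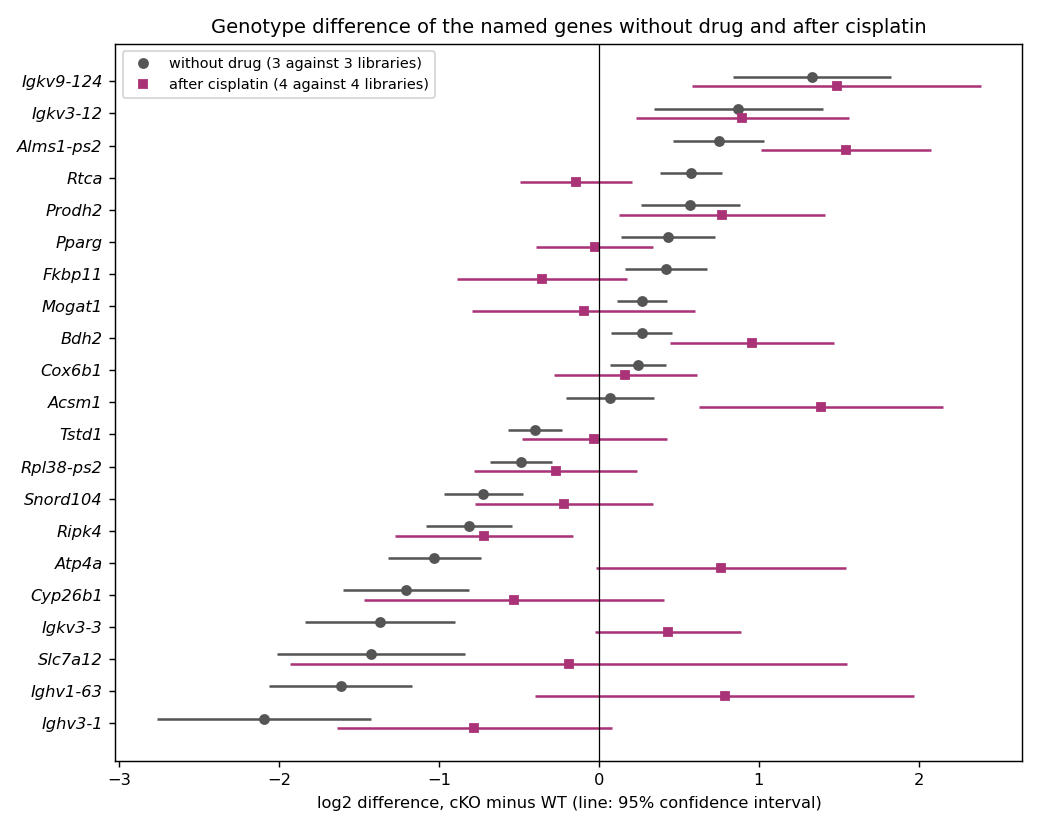
cKO minus WT difference of log2(FPKM + 1) with its 95% confidence interval for each named gene, without drug (grey, 3 against 3 libraries) and after cisplatin (magenta, 4 against 4). Intervals are wider after cisplatin for each gene but Igkv3-3, Ripk4 lies below 0 in both, and Atp4a lies on opposite sides of 0.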

How the data were processed

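Kidney RNA was sequenced from 14 libraries in 4 labelled groups. The submitters' processing notes name HISAT2 2.0.5 as a tool and mm10 as the build. The counter, strand setting and annotation are not given in the sources used here. Values are FPKM per gene and library, as computed and deposited by the authors from Illumina TruSeq libraries of Trizol-extracted total RNA, per the labels. The table lists 49584 genes, and 0 columns lacked a sample. Depth came from genes where FPKM times the GENCODE M21 length is a whole number of reads (tolerance 0.0001 reads), which held for 11582 of 29480 genes above 0. For 17897 others, Ripk4 and Acsm1 included, the length was searched for so that reads came out whole, so wholeness there is no check. Reads cover counting error only.

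From the FPKM values, log2(FPKM + 1) was computed for the 15046 genes whose 6 untreated libraries averaged 0.5 FPKM or more (34538 removed), and cKO was compared with WT by limma 3.58.1 in R 4.3.3 with a mean-variance trend, two-sided, adjusted by Benjamini-Hochberg over these genes. The cisplatin comparison used the 8 treated libraries, and the difference of differences used all 14. The procedure was tested on simulated data. Genes were named by rule: Ripk4, Acsm1, the 15 largest called changes per direction, filled where fewer were called by the smallest p up to 10 per direction, and up to 4 members per list. Groups, lists and rule were chosen with earlier results of these data known, and list statements are counts and medians, without a test. Alternatives were other added constants, filters, scalings, limma settings, voom on recovered reads, all 14 libraries in 1 model and each library left out. Replicate numbers follow record order.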

Additional observations from a re-analysis of the deposited data

Results flagged for a closer look

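In groups of 4 libraries after cisplatin, 42 group and gene pairs of the named genes were examined for a single library far from the others, and 4 stood out, where chance gives about 1 in 20. Acsm1 was at 185 FPKM in cKO cisplatin replicate 4, against 49.9 to 71.1 in the other 3. Fkbp11 was at 8.04 FPKM in cKO cisplatin replicate 2, against 4.04 to 4.70. Cox6b1 was at 973 FPKM in WT cisplatin replicate 1, against 544 to 583. Igkv3-3 was at 1.14 FPKM in cKO cisplatin replicate 1, against 0.0587 to 0.221.

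The genotype difference itself differed between the treatments for 2 named genes. Both were picked for their difference without drug, and the untreated libraries also enter this test, so its p-values depend on the pick. The change for Atp4a was 1.80 on the log2 scale (limma adjusted p = 0.0454). All 3 cKO libraries lay below WT without drug. The adjusted p ranged from 0.0115 to 0.118 when each of the 14 libraries was left out, and was under 0.05 only without WT cisplatin replicate 1 or 2 or cKO cisplatin replicate 1 or 2. The change for Igkv3-3 was 1.80 (limma adjusted p = 0.0145). Igkv3-3 was listed at 0 in all 4 WT cisplatin libraries, so this fitted value depends on the added constant, and its adjusted p was 0.0523 without WT untreated replicate 3.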

How the results depend on the processing

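No gene was called without drug under any of the 12 other settings that kept all 6 libraries. Leaving out 1 library gave 0 to 1 genes higher (Mettl7a3, without cKO replicate 3) and 0 to 2 lower (BC002163 and Nat8f7, without WT replicate 1), genes named after their values were seen. Ripk4 stayed below 0 in all 18 alternatives, from -0.96 to -0.75, with limma adjusted p from 0.206 to 1. Acsm1 changed sign without WT replicate 3 (-0.02) and without cKO replicate 1 (-0.034), from 0.07, and reached 0.149 at most. The change of the Ripk4 difference under cisplatin turned to -0.024 without WT cisplatin replicate 1 and to -0.11 without cKO cisplatin replicate 3, within a range up to 0.267. With all 14 libraries in 1 model, 1328 genes were higher and 2586 lower after cisplatin. Leaving out 1 cisplatin library, an alternative added after the data were seen, gave 272 to 1256 higher and 458 to 2904 lower, and the difference of differences gave 45 to 2131 genes. The cause was not tested.

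No paired analysis was possible because the labels give no replicate numbers. With 3 libraries per group, differences of genes under 1 FPKM were the least bounded.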
